A study of Mus musculus with 2 samples.

Results

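The circadian clock genes Clock, Npas2, Per1, Per2, Per3, Cry1, Cry2, Nr1d1, Nr1d2 and Dbp were compared between the intestines of gut-specific GDE5 knockout and wild-type mice. They were taken by name, with every probe printed under one of these symbols, and make up 10 of the 26582 names on the array, with 18 probes in all. GDE5, encoded by Gpcpd1, splits glycerophosphocholine. Both groups were male C57BL/6 mice, 20 weeks old and fed a normal diet; the promoter or Cre line behind the gut-specific deletion, the part of the intestine and the time of day of sampling are not given in the sources used here. RNA labelled knockout and RNA labelled wild type competed on each of 2 Agilent arrays, the knockout carrying Cy3 in replicate 1 and the dyes being swapped in replicate 2. The series text speaks of 5 mice; pooling and shared extracts are not given, so an error here (SD, n = 2) is the gap between arrays and may hold no spread between animals.

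The clock is a feedback loop of transcription that runs in nearly every cell. CLOCK, or its relative NPAS2, pairs with BMAL1 on E-box sequences and switches on the Per and Cry genes, whose proteins return to the nucleus and block the pair. The same pair drives the REV-ERB receptors, encoded by Nr1d1 and Nr1d2, which repress Bmal1 and Clock in a second loop, and Dbp, a factor that carries the rhythm to output genes through D-box sequences. In the intestine the loop follows feeding time and sets daily rhythms in nutrient transport and cell division.

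The targeted gene did not bear out the labels. Of the 4 Gpcpd1 probes, 3 had ratios above 0 on both arrays, that is more signal in RNA labelled knockout, with means of 0.68 ± 0.56, 0.62 ± 0.08 and 0.47 ± 0.25, and the fourth was at -0.43 and 0.17 (mean -0.13 ± 0.43). Which part of the gene was deleted is not given, and a probe outside it checks nothing. Knockout below therefore means the RNA labelled knockout, and every direction rests on those labels.

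None of the 9 clock genes that could be tested was called different between the genotypes. All mean log2 ratios of knockout over wild type lay between -0.12 (Per2) and 0.14 (Nr1d1), and 0 of the 9 were called by limma with Benjamini-Hochberg adjustment over all genes (adjusted p = 1 for each). The same test called 0 of the 18977 genes tested (0%), so a member's missing call sets it apart from no other gene. Without adjustment 0 members had a limma p under 0.05, against 1.24% of all genes. No member (0 of 9) reached 1.5-fold one way on both arrays, against 0.216% of all genes. The data do not show that there are no differences, and a 95% interval from limma is given beside each gene. Its width rests on the gene's own gap between the arrays and on gaps pooled over all tested genes, dye difference included. The pooled part has 3.02 degrees of freedom against 1 for the gene. The interval may hold no spread between animals. It therefore does not bound the difference between knockout and wild-type mice. No adjusted p of a member was under 0.999 in any of the 11 other ways of processing that were tested.

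Motifs of the loop stand just before some of these genes. The RefSeq windows from 250 bases before to 50 bases after each annotated start (GRCm38.p6) covered 9 of the 10 genes, in 12 windows. Per2 had no window and was not searched. An exact E-box (CACGTG, the same on both strands) stood in 2 of the 12 member windows, for Cry1 and Per1, and in 7.15% of all 32851 windows. A D-box (TTATGTAA or TTACGTAA, either strand) stood in 1 of the 12 member windows and in 1.06% of all windows. It stood 2 times in that window, which belongs to Per3. Element letters bound by ROR and REV-ERB receptors (TAGGTCA or TGGGTCA, either strand) were in no member's window and in 6.45% of all windows. A match is a description of letters, not of binding. The stretches below run 5′ to 3′ on the strand of the gene, with the motif in capitals; they are shown because E-boxes and D-boxes are the letters that CLOCK with BMAL1, and DBP, are known to read.
Cry1 E-box (chr10:85185097-85185126, minus strand, 60 bases before the start): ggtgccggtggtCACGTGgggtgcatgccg
Per1 E-box (chr11:69098771-69098800, plus strand, 166 bases before the start): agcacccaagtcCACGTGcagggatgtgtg
Per3 D-box (chr4:151044852-151044881, minus strand, 205 bases before the start): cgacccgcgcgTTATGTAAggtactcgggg
Per3 D-box (chr4:151044805-151044834, minus strand, 158 bases before the start): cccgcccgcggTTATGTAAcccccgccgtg

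Of the 18 probes, 16 entered the tests, which asked that at least 1 genotype be well above background on both arrays. Each was printed once, so a gene with several probes was read at several places of its transcript. Below, an intensity is the deposited mean brightness of a spot, before any correction, and a ratio is a log2 ratio of knockout over wild type after background correction and loess. The scanner's local background was 25 to 26 in Cy3 and 44 in Cy5. Intensities of different probes, or of different dyes, are not on one scale, so no gene's level is set against another's.

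**Figure D1:**
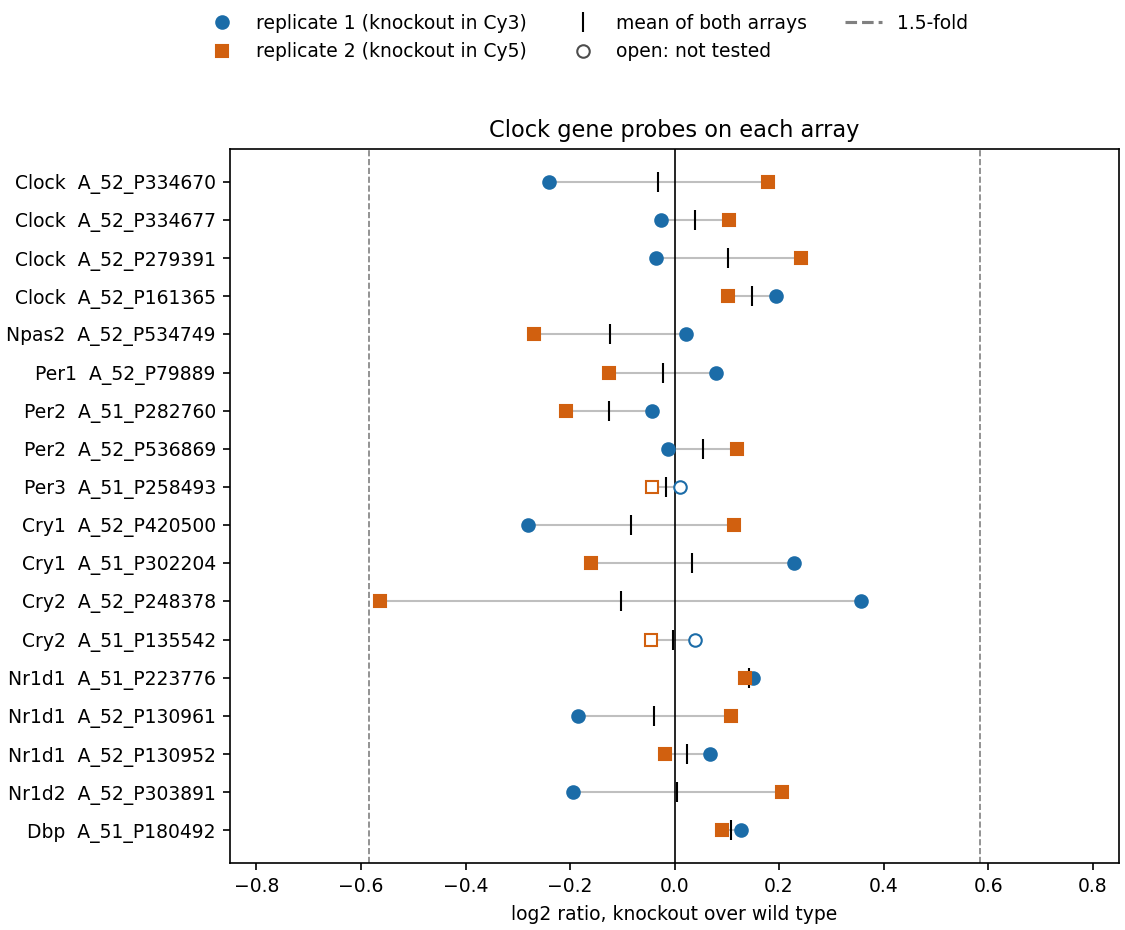
Log2 ratio of knockout over wild type for each of the 18 clock gene probes. Circles are replicate 1 (knockout in Cy3), squares replicate 2 (knockout in Cy5), ticks the mean of both arrays, open symbols the 2 probes that were not tested, and dashed lines mark 1.5-fold. Every array value lies inside the dashed lines, and for 12 of the 16 tested probes the arrays fall on opposite sides of 0.

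Dbp, the output factor of the loop, had one of the closest pairs of arrays. Its probe A_51_P180492 (chromosome 7, 52965265 to 52965324, mm9, the build named in the scanner files) gave knockout and wild-type intensities of 5538 and 4664 in replicate 1, and 4534 and 5256 in replicate 2. The raw order of the genotypes thus turned with the dye. After normalisation both arrays put the knockout slightly higher, at log2 ratios of 0.13 and 0.09 (mean 0.11 ± 0.03, SD, n = 2). The limma interval ran from -0.27 to 0.49, or from 0.83-fold to 1.4-fold, and the unadjusted limma p was 0.47. The shift is below the scatter of a single spot: copies of 1 probe, for the 188 tested probes with 10 copies, had a median SD of 0.225 in replicate 1 and 0.17 in replicate 2 (log2 ratio).

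Nr1d1 encodes REV-ERB alpha, the receptor that represses Bmal1. Its brightest probe, A_51_P223776 (chromosome 11, 98630526 to 98631028, mm9), spans more genome than its own length, as a probe across a splice junction does. Its knockout and wild-type intensities were 393 and 322 in replicate 1, and 342 and 369 in replicate 2. The log2 ratios of 0.15 and 0.13 (mean 0.14 ± 0.01) were the largest mean and the closest pair of arrays among the 9 genes. The limma interval was -0.24 to 0.52, or 0.849-fold to 1.43-fold. Probes A_52_P130952 and A_52_P130961, nearer the 5′ end, did not share the shift. They were at 0.07 and -0.02 (mean 0.02 ± 0.06) and at -0.18 and 0.11 (mean -0.04 ± 0.21). Both were dim, with intensities of 63.2 to 96.4 over both genotypes and arrays. Of these probes, A_51_P223776 and A_52_P130952 are printed because they read one transcript at separate places and gave different values; each had 1 reading frame free of stop codons over its length of 60 bases.
Nr1d1 A_51_P223776: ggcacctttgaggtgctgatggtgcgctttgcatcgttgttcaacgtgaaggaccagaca
Nr1d1 A_52_P130952: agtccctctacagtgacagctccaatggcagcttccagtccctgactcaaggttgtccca

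Nr1d2 encodes REV-ERB beta, which shares that role. Its single probe A_52_P303891 had intensities of 1819 and 1861 in knockout and wild type in replicate 1, and of 1736 and 1890 in replicate 2. The ratios of -0.19 and 0.21 cancelled to 0.01 ± 0.28, with a limma interval of 0.726-fold to 1.39-fold. In both arrays the Cy5 side was the higher one after loess, by 0.20 on average. Nr1d1 was thus on one side of 0 on both arrays and Nr1d2 was not; the difference between the genes was not tested.

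Clock, the activator subunit that also acetylates histones, had 4 tested probes, the most of any member. The brightest, A_52_P334670 (chromosome 5, 76641377 to 76641436, mm9), had knockout and wild-type intensities of 3582 and 3846 in replicate 1, then 3499 and 3846 in replicate 2. Its ratios were -0.24 and 0.18 (mean -0.03 ± 0.30, limma interval 0.704-fold to 1.36-fold). Probes A_52_P334677 and A_52_P279391 were at 0.04 ± 0.09 and 0.10 ± 0.20, both with opposite signs on the arrays. Probe A_52_P161365, the one furthest towards the 5′ end, was at 0.19 and 0.10 (mean 0.15 ± 0.07), higher on both arrays and with intensities of only 90.7 to 103.6. The direction of Clock therefore depended on the probe. Its brightest probe, of which the first 30 bases are given, and its dimmest, given whole, are shown as the ends of that range.
Clock A_52_P334670, bases 1 to 30: ttcccatttgagttgctcttgtaatatttt
Clock A_52_P161365: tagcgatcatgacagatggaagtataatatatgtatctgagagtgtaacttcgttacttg

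Npas2, which can stand in for CLOCK as the partner of BMAL1, had 1 probe, A_52_P534749, with intensities of 56.6 and 71 in knockout and wild type in replicate 1 and of 64 and 65.6 in replicate 2. Its ratios were 0.02 and -0.27 (mean -0.12 ± 0.21), and the limma interval was 0.682-fold to 1.23-fold. Arntl, the gene of BMAL1 itself, was not among the members but is the partner of both. Its ratios were -0.11 and 0.00 (mean -0.06 ± 0.07, limma interval 0.737-fold to 1.25-fold). Clock, Npas2 and Arntl had means below 0, that of Clock turning positive in 4 of the other 11 ways of processing, and of the 3 Arntl alone was on one side of 0 on both arrays.

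Per1 and Per2, which encode PER repressors and respond to cues that reset the clock, had means below 0, though both turned positive under some other processing. The Per1 probe A_52_P79889 gave knockout and wild-type intensities of 293 and 260 in replicate 1, then 233 and 292 in replicate 2. Its ratios were 0.08 and -0.12 (mean -0.02 ± 0.14, limma interval 0.745-fold to 1.3-fold). The brighter Per2 probe, A_51_P282760 (chromosome 1, 93313046 to 93313105, mm9), had intensities of 416 and 387 in replicate 1 and of 402 and 559 in replicate 2. It was lower on both arrays, at -0.04 and -0.21 (mean -0.12 ± 0.12), with a limma interval of 0.698-fold to 1.21-fold. The second Per2 probe, A_52_P536869, was at -0.01 and 0.12 (mean 0.05 ± 0.09). Spots of A_51_P282760 carried the scanner software's mark for an unusual local background in replicate 2; without such spots, an alternative chosen after the data were seen, Per2 rests on its dim probe and its mean was 0.05.

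Per3, a paralogue that contributes less to the core loop, could not be compared. Its probe A_51_P258493 had knockout and wild-type intensities of 35.6 and 54.9 in replicate 1, then 56.2 and 36.7 in replicate 2. In each array it was well above background in Cy3 alone, which was the knockout in replicate 1 and the wild type in replicate 2. It thus passed the threshold with the dye and not with the genotype.

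Cry1 and Cry2, the cryptochromes that block CLOCK and BMAL1 most directly, went opposite ways on the arrays at each tested probe. The Cry1 probe A_52_P420500 had knockout and wild-type intensities of 151 and 191 in replicate 1, then 176 and 181 in replicate 2, with ratios of -0.28 and 0.11 (mean -0.08 ± 0.28, limma interval 0.684-fold to 1.3-fold). The other Cry1 probe, A_51_P302204, had ratios of 0.23 and -0.16 (mean 0.03 ± 0.27). The probes of this gene were therefore mirror images: one was brighter in Cy5 on both arrays, by 0.20 on average, and the other in Cy3, by 0.19. They differ in base composition, with 14 and 26 G or C among their 60 bases; the part of composition in the dye difference was not tested. The coding-like probe, with all 3 frames open, is given whole and the other by its first 30 bases.
Cry1 A_52_P420500, bases 1 to 30: ttttcatgtatggtaaaagttaaagttaac
Cry1 A_51_P302204: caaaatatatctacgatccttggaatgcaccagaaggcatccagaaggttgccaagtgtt

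The tested Cry2 probe, A_52_P248378 (chromosome 2, 92244363 to 92244422, mm9), had the widest gap between arrays of all 16 probes. Its knockout and wild-type intensities were 135 and 105 in replicate 1, then 101 and 163 in replicate 2. The ratios of 0.36 and -0.56 gave a mean of -0.10 ± 0.65, and the limma interval, 0.557-fold to 1.55-fold, was the widest of the 9 genes. Cy3 was the brighter dye on both arrays, by 0.46 on average. The second Cry2 probe, A_51_P135542, was not well above background in either genotype on either array. In the authors' deposited table its log2 ratio of 1.22 in replicate 1, the largest in size among the 18 member spots, had a deposited p-value of 0.19.

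**Figure D2:**
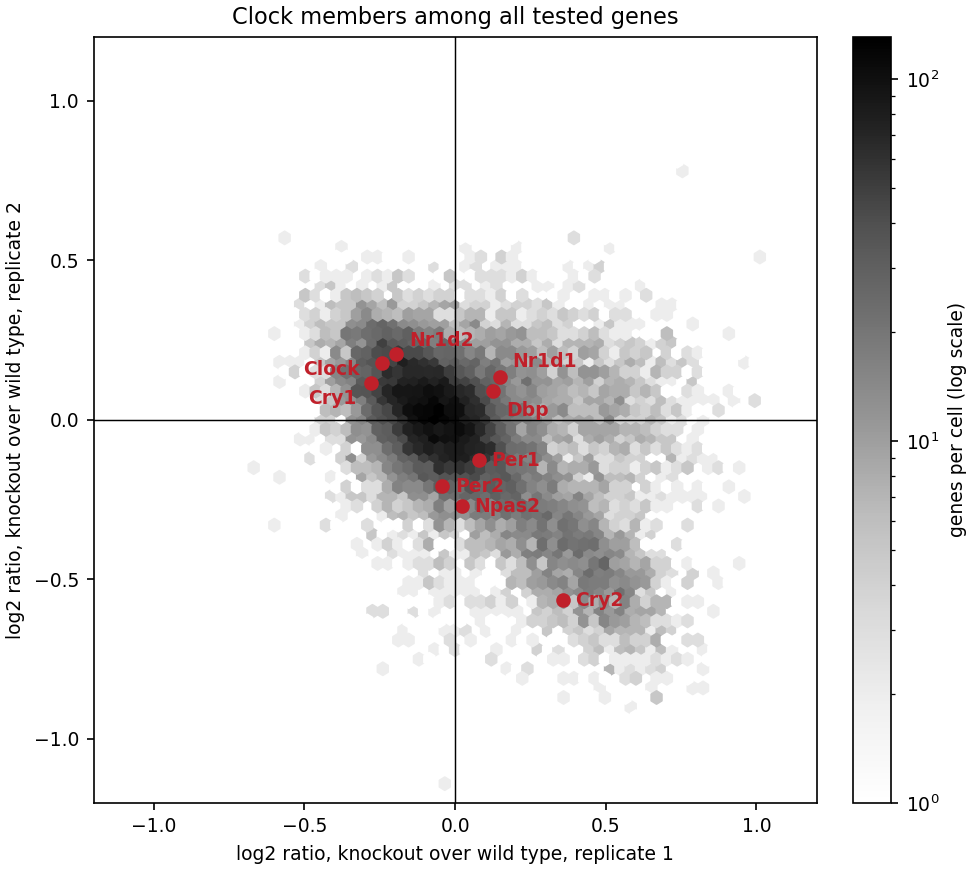
Log2 ratio of knockout over wild type on replicate 1 (horizontal) against replicate 2 (vertical) for all 18977 tested genes, as grey cells shaded by the number of genes on a log scale, with the 9 tested clock genes in red; genes beyond 1.2 on an axis are not drawn. Dbp and Nr1d1 lie in the upper right quadrant and Per2 in the lower left, where the arrays agree on the direction. The other 6 lie in the quadrants where the arrays have opposite signs.

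With swapped dyes, a genotype part is the mean of the knockout over wild-type ratios and a dye part the mean of Cy5 over Cy3. A gene on the same side on both arrays is one whose genotype part is the larger. Each dye orientation was used on 1 array, so the dye part cannot be told apart from other differences between the arrays. Of the 9 clock genes, 2 were higher on both arrays, 1 was lower on both and 6 went opposite ways. Over all tested genes 16.9% were higher on both, 18.1% lower on both and 64.9% opposite, so the counts of the clock genes were near the background. Over these genes the knockout over wild-type ratios of the arrays had a Pearson correlation of -0.38 (Spearman -0.42). The arrays thus did not agree on the genotype over the genes as a whole, which limits the reading of any member's mean. A shared direction was seen in 3 of the 9 members and in 35.1% of all genes. Cy5 was the brighter dye on both arrays for Clock, Cry1 and Nr1d2 (3 members, 31.3% of all genes), and Cy3 for Npas2, Per1 and Cry2 (3 members, 33.6% of all genes). The dye part was the larger in size for Clock (0.21 against -0.03), Nr1d2 (0.20 against 0.01), Cry1 (0.20 against -0.08), Cry2 (-0.46 against -0.10), Npas2 (-0.15 against -0.12) and Per1 (-0.10 against -0.02), where a positive dye part means a brighter Cy5. It was -0.02 for Dbp, -0.01 for Nr1d1 and -0.08 for Per2. The median size of the genotype part was 0.10 in the clock genes and 0.06 over all genes, and the median SD between arrays 0.21 and 0.17.

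By their means, the activators Clock and Npas2 lay below 0 and the repressors on both sides of 0. Activators and repressors were not compared by a test. The median ratio of the 9 genes was -0.03, with 0.02 in replicate 1 and 0.09 in replicate 2, against -0.01 over all genes. Among the targets of CLOCK and BMAL1, Dbp, Nr1d1 and Nr1d2 had means above 0 and Per1, Per2, Cry1 and Cry2 below 0. Only Dbp, Nr1d1 and Cry1 among these kept their sign in all 11 other ways of processing, some of which left values unchanged. The largest of these means in size, that of Nr1d1, was larger than that of 79.3% of all tested genes.

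The scanner software's own ratios, in the authors' deposited table, were read spot by spot as well. Of the 18 member spots, 1 had a deposited p-value under 0.05 in replicate 1 and 1 in replicate 2, against 9.48% and 9.32% of all spots, so neither count was above the background. On both arrays the count was 0, against 2.1% of all spots. In replicate 1 the spot, in the authors' deposited table, was Nr1d1 A_52_P130961 (deposited log2 ratio -0.64), with a deposited p-value of 0.00607, which was at 0.39 in replicate 2. In replicate 2 of the authors' deposited table it was Cry2 A_52_P248378 (deposited log2 ratio -0.74), with a deposited p-value of 0.00071, which was at 0.40 in replicate 1. Each of these spots therefore had opposite signs on the arrays, whose dyes were swapped.

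**Figure D3:**
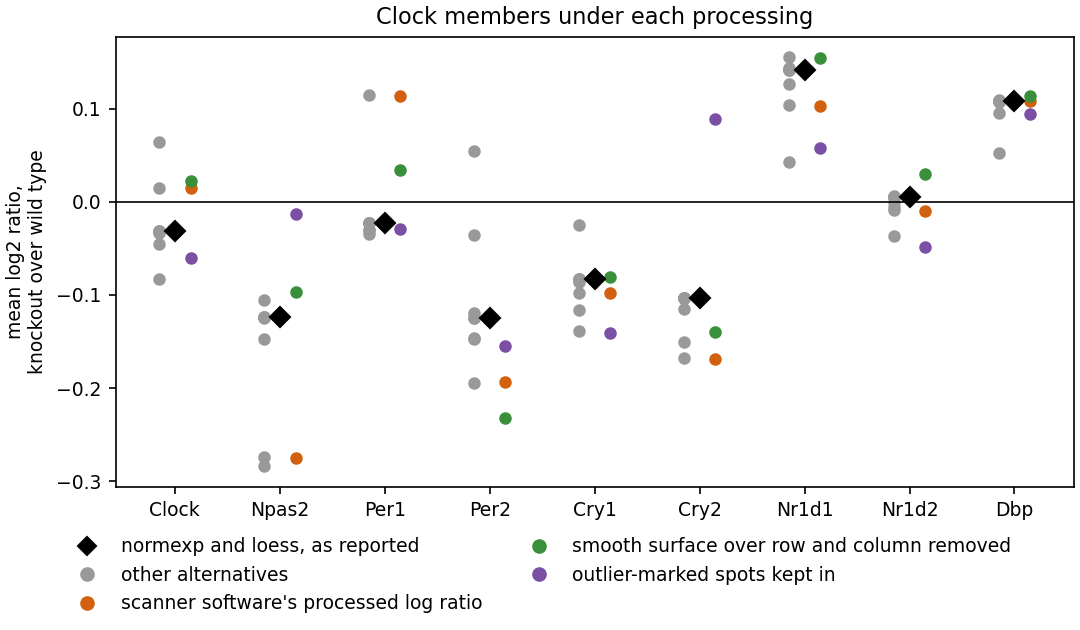
Mean log2 ratio of knockout over wild type of each tested clock gene as reported (black diamonds) and under 11 other ways of processing (dots, 3 of them in colour). Dbp and Nr1d1 stay above 0 and Npas2 and Cry1 below 0 in all of them, while Clock, Per1, Per2, Cry2 and Nr1d2 have values on both sides. Some of the alternatives left a gene's value unchanged.

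Genes around the loop were as close to 0. Over 8 lists of partners, modifiers and outputs, 39 of 43 genes were tested, with a median of -0.01. Of these, 4 were higher on both arrays, 9 lower on both and 26 opposite. Over all tested genes the shares were 16.9%, 18.1% and 64.9%, and they also stand beside the counts of each list below. Limma called 0 of the 39 (0% of all genes), and 0 had an unadjusted limma p under 0.05 (1.24% of all genes). Of the ROR receptors, which switch Bmal1 on where REV-ERB switches it off, 2 of 3 were tested and Rora was at -0.05 ± 0.05. The relatives of DBP, Tef and Hlf, were at -0.04 ± 0.12 and -0.03 ± 0.15, and Nfil3, which competes for the D-box, at 0.07 ± 0.44; all 3 went opposite ways on the arrays. So did the 4 tested of 5 genes listed under further clock repressors, Bhlhe40 (0.18 ± 0.50), Ciart (-0.02 ± 0.26), Timeless (0.01 ± 0.25) and Tipin (-0.01 ± 0.03). That heading does not establish that Timeless and Tipin repress the clock, and their role was not tested.

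Among 9 kinases and ubiquitin factors that set the life of PER and CRY proteins, 1 was higher and 2 lower on both arrays. Csnk1e, a kinase that marks PER for breakdown, was at 0.15 ± 0.06, the ubiquitin ligase part Btrc at -0.10 ± 0.07, and the rhythmic deubiquitinase Usp2 at -0.20 ± 0.23. Of 8 output genes, 2 were lower on both and 0 higher. Klf10, a Krüppel-like repressor under clock control, had the largest mean in size of all the related genes, at -0.32 and -0.38 (mean -0.35 ± 0.04). Its limma interval of 0.604-fold to 1.02-fold included 1 (adjusted p = 1, limma). Noct, a rhythmic phosphatase first described as a deadenylase, was at -0.13 ± 0.06.

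Of 6 transport and lipid export genes with daily rhythms in the gut, 3 were lower on both arrays and 1 higher. Over all tested genes the shares were 18.1% and 16.9%. The fructose carrier Slc2a5 was at -0.29 and -0.32 (mean -0.31 ± 0.02, limma interval 0.621-fold to 1.05-fold), and the sugar carrier Slc2a2 at -0.23 ± 0.08. Slc5a1, which takes up glucose with sodium, was at -0.08 ± 0.05 and Mttp, which loads lipid onto lipoproteins, at 0.07 ± 0.07. Glucocorticoids are a hormonal cue that resets clocks in tissues, and 6 of 7 genes that they induce were tested. Of these, 2 were higher on both arrays, 0 lower and 4 opposite, with a median of 0.01 and means from -0.19 to 0.17. The 2 higher genes were Pdk4 at 0.17 ± 0.14 and Cdkn1a at 0.05 ± 0.02. In these lists limma also called 0.

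**Figure D4:**
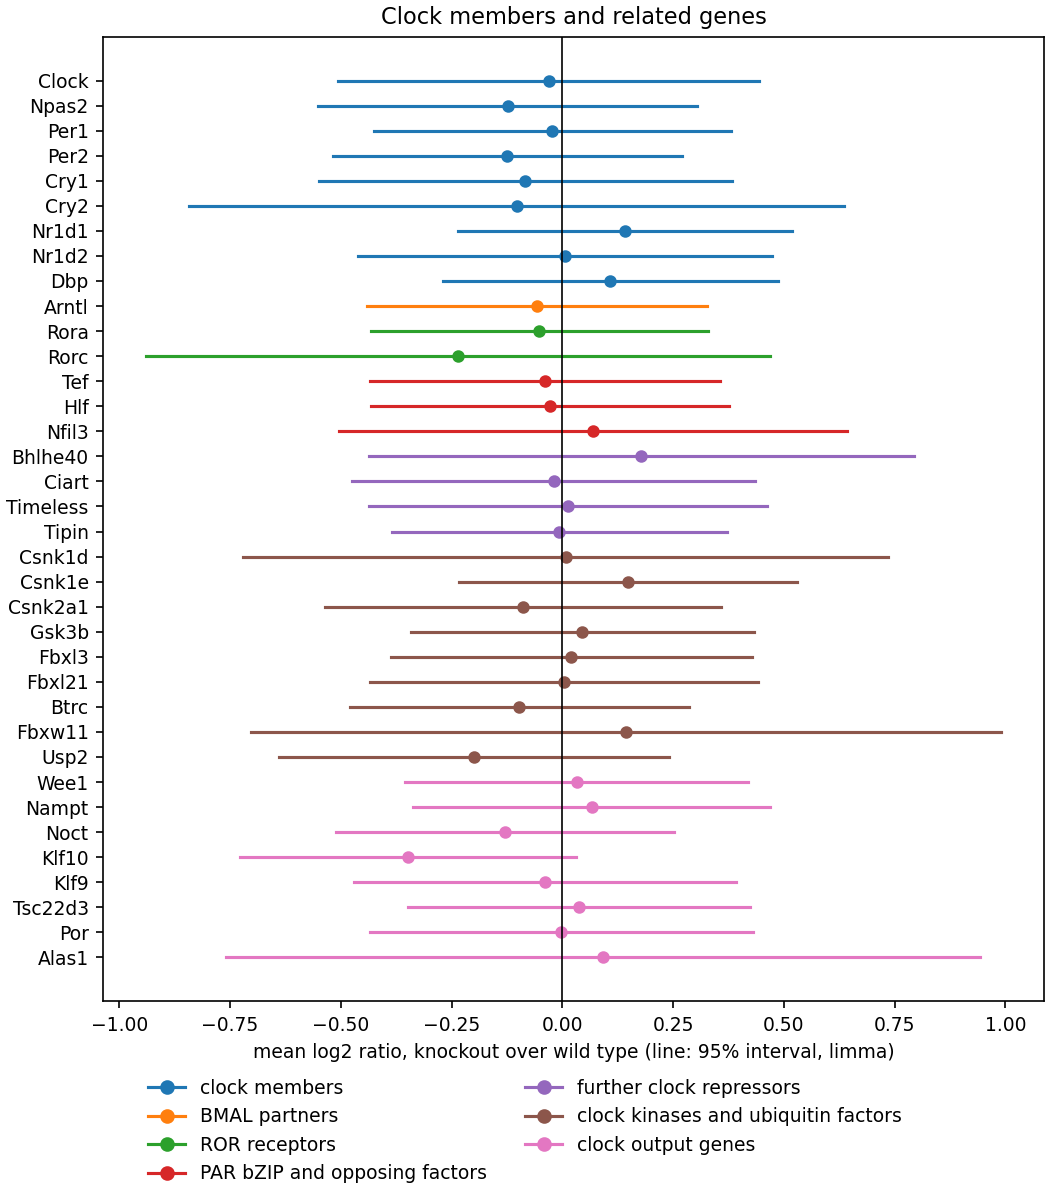
Mean log2 ratio of knockout over wild type (points) with the 95% limma interval (lines) for the 9 tested clock genes and the tested genes of 6 related lists, coloured by list. Every interval includes 0; the widest among the clock genes is that of Cry2, and the one nearest to leaving 0 is that of the output gene Klf10.

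The tissue was checked on the same arrays. Beside the counts below, 16.9% of all tested genes were higher on both arrays and 18.1% lower on both. All 8 markers of gut epithelium were tested, with a median ratio of -0.06 (1 higher on both arrays, 3 lower on both); the higher one was Fabp2, a fatty acid binding protein of enterocytes, at 0.95 and 0.45 (mean 0.70 ± 0.35, limma interval 1.14-fold to 2.31-fold, adjusted p = 1). All 5 smooth muscle markers were tested, with a median of -0.04. Skeletal muscle markers, 7 of 7 tested, had a median of 0.26 (4 higher on both arrays, 2 lower on both). Myh4 was at 2.18 ± 0.23 and Tnnt3 at 0.78 ± 0.08, whereas Acta1 (-0.07 ± 0.09) and Ckm (-0.07 ± 0.08) were lower on both. Mylpf went opposite ways on the arrays (mean 0.22 ± 0.50). Lymphocyte markers, 6 of 6 tested, had a median of 0.25 (5 higher on both), with Ms4a1 at 0.67 ± 0.12 and Cd3g at 0.52 ± 0.12. Cd3e went opposite ways on the arrays (mean -0.02 ± 0.24). Adipocyte markers, 4 of 5 tested, had a median of -0.17 (3 lower on both arrays), with Cfd at -0.50 ± 0.03. Cidec went opposite ways on the arrays (mean 0.05 ± 0.31). Exocrine pancreas markers (4 of 6 tested) had a median of -0.09. Hepatocyte markers (3 of 5 tested) had a median of 0.12 (2 higher on both arrays, 1 lower on both), with a range of -1.07 to 0.17. The lower one was Tat, at -1.14 and -0.99 (mean -1.07 ± 0.10, limma interval 0.364-fold to 0.625-fold). In these lists limma called 0 in the processing reported. Under other processing Myh4 was called by limma with normexp offset 0 (adjusted p = 9.54e-16), the scanner software's ratios (adjusted p = 1.14e-05), the value table (adjusted p = 1.61e-05) and a surface removed (adjusted p = 0.000315). Tnnt3 was called in the first 3 of these, with limma adjusted p from 0.00309 to 0.00384 and a ratio of up to 1.47. All these tissues run a clock, and their part in the ratios above was not tested; in bulk RNA, fewer cells of a type and less RNA per cell cannot be told apart.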

How the data were processed

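Per the file headers, the authors' deposited scanner files were made with Agilent Feature Extraction 11.5.1.1 (the submitters' processing notes name 9.5) and hold intensity per spot and dye, uncorrected and processed, a log10 ratio of processed Cy5 over Cy3, and an error-model p-value. The deposited value table holds the same log10 ratios, with a largest difference of 5e-04, a median of 0 in each array and both unturned.

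Spots marked as outliers (133 and 222 of 43379) were left out. Background was corrected by normexp (offset 50) and ratios normalised by loess in R 4.3.3 with limma 3.58.1, turned to knockout over wild type, and averaged per probe. A probe entered (29078 did) when at least 1 genotype was well above background on both arrays; the brightest stood for its gene (18977 genes). Symbols followed a RefSeq table (GRCm38.p6) for 31441 spots. Ratios were tested against 0 with limma (lmFit, eBayes; 1 residual and 3.02 prior degrees of freedom), with Benjamini-Hochberg adjustment at 0.05. No dye term was fitted, since no residual degrees of freedom would be left. The number of arrays limits precision; no spot was saturated (0 and 0).

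Named genes are all members, Arntl, Gpcpd1 and up to 4 per related list by mean size among those alike in direction on both arrays, or among all where none was. Marker genes named were chosen after their values were seen. Members and lists were chosen with earlier results of these data known. Motif windows were searched for exact letters, and frames for stop codons. Alternatives are given at the end; the surface used mgcv 1.9.3.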

Additional observations from a re-analysis of the deposited data

How the results depend on the processing

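In every alternative with a test, limma called 0 clock genes, and in all of them 0 were 1.5-fold apart on both arrays. Of 99 values of the 9 clock genes over 11 alternatives, 85 kept their sign and 14 turned it, and the cause was not tested. Not every alternative moved a value. Dropping the filter on dim probes, or asking for both genotypes above background, gave each member the value reported. The mean of tested probes changed nothing for Npas2, Per1, Cry2, Nr1d2 and Dbp, each with a single tested probe. The deposited value table nearly repeats the scanner software's ratios. With the scanner software's ratios Clock was at 0.0155, Per1 at 0.1139, Nr1d2 at -0.0099 and Hlf at 1e-04; with the deposited value table they were at 0.0149, 0.1146, -0.0083 and 0. With a smooth surface removed Clock was at 0.0228, Per1 at 0.0346, Tef at 0.0126, Hlf at 0.0259, Ciart at 0.0305 and Tipin at 9e-04. With the mean of probes Clock was at 0.0648. With outlier-marked spots kept Cry2 was at 0.0887, Nr1d2 at -0.0485 and Timeless at -0.0788. Nr1d2 was at -0.0059 with normexp offset 0 and at -0.0366 with median centring. Per2 was at 0.0544 without spots marked for their background, an alternative chosen after seeing the data, in which it rests on its other probe.

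The median of the clock genes was -0.083 with median centring and 0.0228 with a surface removed, and 0.0226 to 0.0905 leaving out either array, which leaves 1 array and no test. That of the related genes was -0.0511 with median centring, -0.0421 with outlier-marked spots kept, 0.0126 with a surface removed, and -0.0409 to -0.0196 on 1 array. Over all genes limma called 22 with offset 0, 39 with the scanner software's ratios, 37 with the value table and 10 with a surface removed, against 0. Genes 1.5-fold apart on both arrays numbered 89, 161 and 159 in the first 3 of these and 24 with outlier-marked spots kept, against 41; on 1 array 756 to 1049 were past that fold. No paired analysis was possible because the replicate number marks the array, and the reported test of ratios within each array is already paired by it, so no further block can be fitted. With 1 residual degree of freedom, limma intervals ran from 0.83-fold to 1.4-fold for Dbp and from 0.557-fold to 1.55-fold for Cry2. Differences inside such an interval, in either direction, may be missed. Differences between mice may also lie outside these intervals, which may hold no spread between animals.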
